A study of Mus musculus with 12 samples.

Results

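The interferon-stimulated genes described here are 38 genes chosen by name, out of 24910 genes with an expression value in the liver RNA-seq table. The value is FPKM (fragments per kilobase of transcript, scaled to the mapped fragments of the library), a level per length, which was summed over the RefSeq transcripts of each gene. A total of 35 of the 38 passed the filter used for testing, which asked for 1 FPKM or more in 2 or more of the 6 mice, and these are compared with all 9869 genes that passed it. Ifit2, Oas2 and Ifi44 did not pass the filter.

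Interferons are secreted proteins that warn cells of infection. Type I interferons act through the receptor Ifnar and the factor ISGF3, which contains Stat2 and Irf9 and binds the interferon-stimulated response element, while interferon gamma acts through gamma-activated sites. The genes they switch on encode RNA sensors, proteins that block viral RNA or translation, GTPases that attack intracellular vacuoles, and the machinery that loads peptides onto MHC class I. In liver they are expressed by hepatocytes and by resident immune cells such as Kupffer cells.

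All 6 mice were wild-type C57BL/6J males, 2 in each of 3 groups. Sham and VSG mice were placed at 8 weeks of age on a high-fat diet (HFD, 60 kcal% fat), had surgery after 14 weeks and stayed on the diet for another 14 weeks, apart from 4 days of liquid diet after the operation. Vertical sleeve gastrectomy (VSG) removed about 80% of the stomach, whereas the sham operation pressed the stomach along a vertical line without resection. Control mice ate chow for 28 weeks and were not operated, so that diet and operation cannot be told apart between Control mice and either HFD group, and the surgical comparison is VSG against Sham. Chromatin of the same livers was profiled by FAIRE-seq, which enriches open chromatin, in 1 peak list per group.

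The libraries carried abundant hepatocyte transcripts, with Apoa1 between 6334 and 11117 FPKM and Ttr between 1011 and 4143 FPKM. The other hepatocyte marker analysed, Cps1, lay between 70.5 and 518 FPKM and was lowest in the Sham mice. Sequencing depth, read from the spacing of low FPKM values and given relative to Control mouse 1, ran from 0.676 in Sham mouse 1 to 1.56 in VSG mouse 1. In 1 mouse or more, 16.0% of the tested genes had a listed FPKM of 0, among them 3 members: Stat2 in 3 mice, and Irgm1 and Iigp1 in Sham mouse 1. A listed 0 may mean that the estimation failed and not that reads were lacking, so these values and the differences that rest on them are given as listed. In whole liver, fewer cells that express a gene and less RNA per cell cannot be told apart. Since the smallest p of an exact permutation test on 2 and 2 mice is 0.333, single genes were tested only with limma fitted across all tested genes.

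Promoters of many members carried the core of the interferon-stimulated response element. The core GAAANNGAAA, on either strand, was present between 250 bases before and 50 after the start site in 17 of the 32 members with a RefSeq promoter window (53.1%), against 3.99% of 27025 genes. The gamma-activated site TTCNNNGAA was present in 11 of the 32 (34.4%, against 9.55% of genes), and 6 members held both. The 120 bases before the start site are shown for 5 members from the effector and GTPase groups whose levels are given later and whose shown bases overlap no annotated exon, with matches to the core in capitals. They are RefSeq sequences of build GRCm38.p6, placed by exact match in NCBIM37 (mm9, the build of the peaks) and written in the direction of the gene.
Isg15, chr4:155574928-155575047, minus strand: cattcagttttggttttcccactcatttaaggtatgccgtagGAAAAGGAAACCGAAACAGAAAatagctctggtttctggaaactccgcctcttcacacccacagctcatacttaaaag
Oas1g, chr5:121337623-121337742, minus strand: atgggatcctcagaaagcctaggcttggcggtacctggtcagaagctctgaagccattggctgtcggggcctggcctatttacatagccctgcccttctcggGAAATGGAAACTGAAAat
Gbp7, chr3:142193180-142193299, plus strand: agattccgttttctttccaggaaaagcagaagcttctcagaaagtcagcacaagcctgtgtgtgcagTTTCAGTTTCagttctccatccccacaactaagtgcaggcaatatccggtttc
Igtp, chr11:58012938-58013057, plus strand: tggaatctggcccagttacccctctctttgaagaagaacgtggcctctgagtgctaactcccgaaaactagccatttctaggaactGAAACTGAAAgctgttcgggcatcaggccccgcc
Irgm2, chr11:58028359-58028478, plus strand: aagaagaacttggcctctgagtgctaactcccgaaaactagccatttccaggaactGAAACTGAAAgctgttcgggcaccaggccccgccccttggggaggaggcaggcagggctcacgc
Isg15 held 3 overlapping cores, the first starting at position -78 from the start site, and Oas1g held 2, at -18 and -12. Gbp7 carried its core on the opposite strand at -53. Igtp and Irgm2, neighbouring GTPase genes on chromosome 11, had the same 10 letters as their core, at -34 and -64, and their windows shared an identical run of 61 bases that does not include the core, while the windows of Oas1a and Oas1g shared a run of 73 bases. Rsad2, which was lower in HFD than in Control mice, met the same terms but is not shown. It had a core on the opposite strand at -120. Outside the stretches shown, Stat2 had a core at -222. A match is a description of the letters and not evidence that a factor binds there.

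Most interferon-stimulated genes were at low to moderate levels in these livers. Averaged over the 6 mice, 32 of the 38 had an FPKM of at least 1, 12 of at least 10 and 2 of at least 100, the membrane proteins Bst2 (tetherin) and Ifitm3. The median member stood at 4.37 FPKM, against 5.84 FPKM for the median tested gene. The plot of levels by mouse shows that the Control mice lay at the low end for most members, and that a single Sham mouse lay at the high end.

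**Figure D1:**
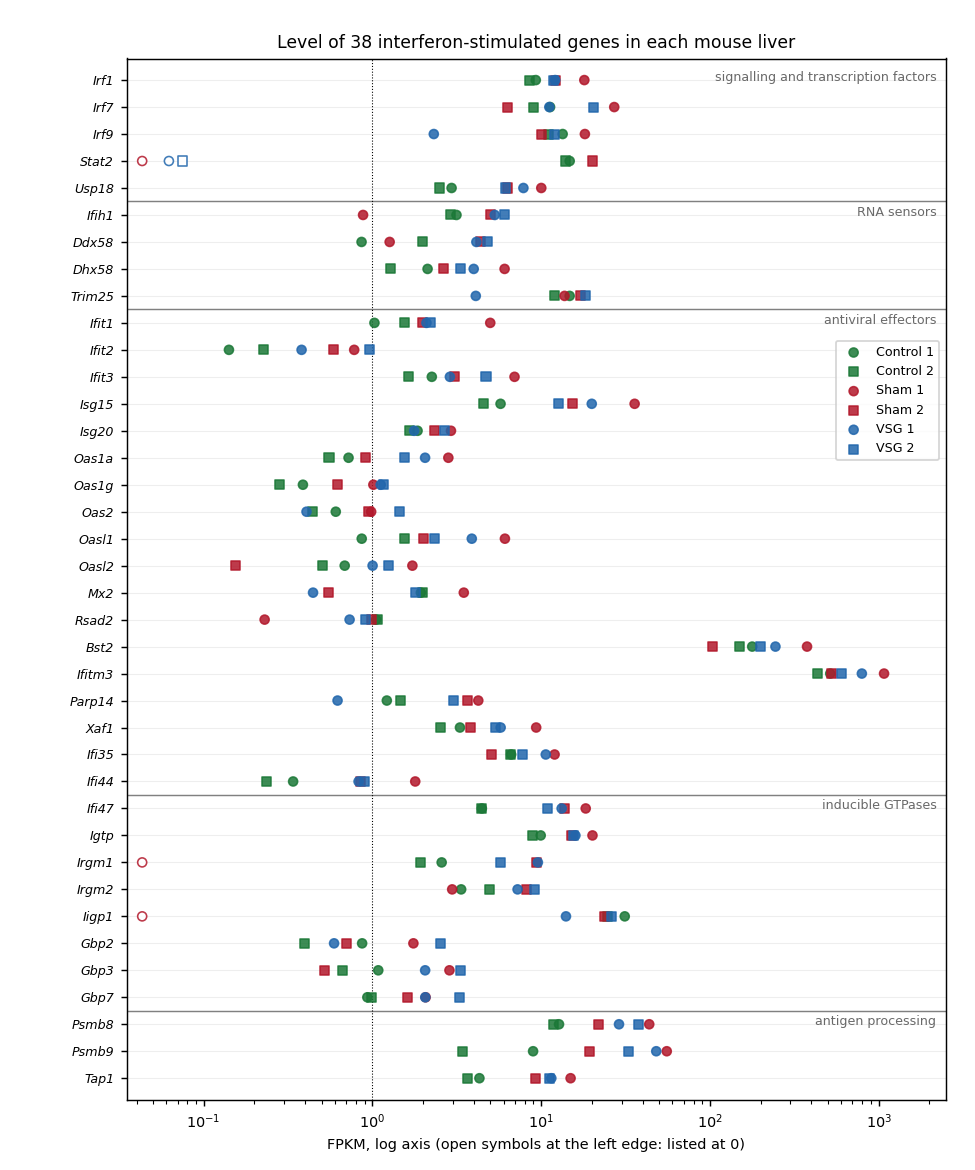
FPKM of each of the 38 genes (rows, grouped by role) in each of the 6 mice on a log axis; colours give the group, circles mouse 1 and squares mouse 2, open symbols at the left edge a listed value of 0, and the dotted line an FPKM of 1. For Isg15, Psmb8, Psmb9, Tap1, Ifi47, Igtp and Usp18 both Control mice lie left of all 4 HFD mice, while Stat2, Irgm1 and Iigp1 have open symbols.

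Compared with Control mice, both HFD groups had higher levels of most members, but no single member passed the test. Sham mice had higher mean levels than Control mice for 29 of the 35 tested members and lower levels for 6, with a median difference of 0.53 on the log2(FPKM + 1) scale, against 0.04 for all tested genes. In limma 0 members passed an adjusted p of 0.1, as did 0.284% of all tested genes. At an unadjusted p under 0.05 there were 8 members, all higher in Sham, against 10.9% of all tested genes. Both Sham mice were above both Control mice for 19 members (54.3%), against 25.4% of tested genes. Below both Control mice were Rsad2 and Iigp1 only, against 20.4% of tested genes.

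VSG mice also stood above Control mice for 29 of the 35 members, with a median log2 difference of 0.69 against 0.13 for all tested genes. Again 0 members passed the adjusted test in limma (0.284% of tested genes did), while 10 had an unadjusted p under 0.05, 9 of them higher and Stat2 lower (background 9.56%). Both VSG mice exceeded both Control mice for 25 members (71.4%, background 33.7%), and both were below for Stat2, Mx2 and Rsad2 (background 14.8%). The Sham and VSG comparisons share the Control mice and are therefore not independent of each other.

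Between VSG and Sham mice, with all mice in the fit, the members were split in direction. The median log2 difference was −0.05, with 17 members higher in VSG and 18 lower, against a median of 0.08 for all tested genes. In limma 0 members passed the adjusted test (0.0507% of tested genes) and 0 had an unadjusted p under 0.05 (4.85% of tested genes). Both VSG mice were above both Sham mice for Ifih1 and Oas1g (background 18.5%), and below for Irf1, Parp14 and Ifi47 (background 9.78%). This comparison rested on the Sham mice, since the median was 0.18 without Sham mouse 1 and −0.45 without Sham mouse 2. Both VSG mice were above the remaining Sham mouse for 18 members without Sham mouse 1 (background 41.6%) and for 7 without Sham mouse 2 (background 36.2%). Both were below it for 5 members without Sham mouse 1 (background 26.0%) and for 23 without Sham mouse 2 (background 30.5%).

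**Figure D2:**
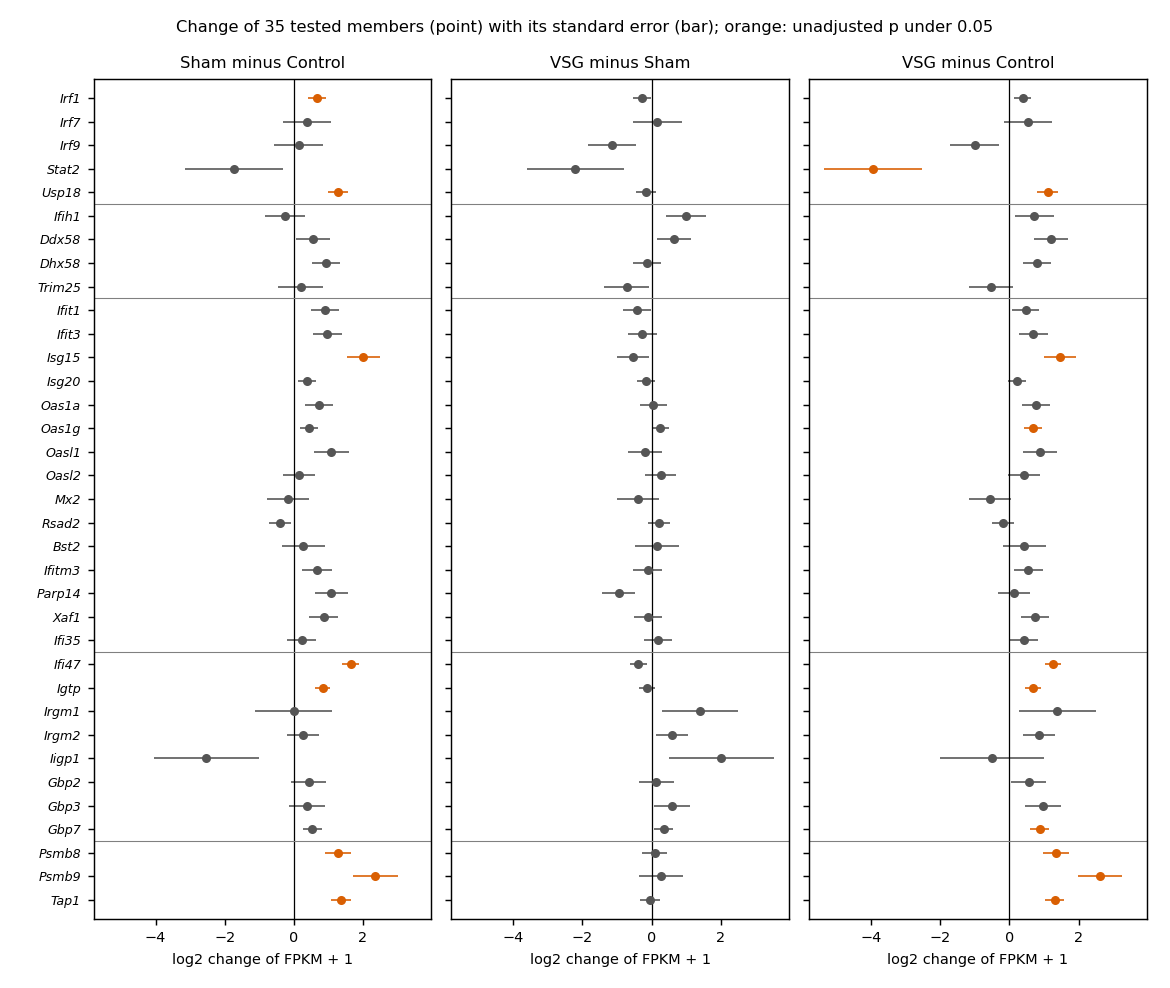
Difference in log2(FPKM + 1) for each of the 35 tested members (rows, in the order of roles used for the levels) in Sham minus Control, VSG minus Sham and VSG minus Control; points are limma estimates, bars standard errors, and orange marks an unadjusted p under 0.05. In both comparisons with Control 29 members lie to the right of 0, while in VSG minus Sham 17 lie to the right and 18 to the left.

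The mean of the 4 HFD mice against Control, a comparison added after the values had been seen, showed which members were separated from Control in every HFD mouse. All 4 HFD mice were above both Control mice for 17 of the 35 members (48.6%, background 17.0%). These were Irf1, Usp18, Dhx58, Ifit1, Ifit3, Isg15, Oas1a, Oas1g, Oasl1, Ifitm3, Xaf1, Ifi47, Igtp, Gbp7, Psmb8, Psmb9 and Tap1. Rsad2 was the member below Control in all 4 HFD mice (background 9.16%). In limma 0 members passed the adjusted test (0.385% of tested genes), and 9 had an unadjusted p under 0.05, all of them higher (background 11.8%). Leaving out a mouse can only keep or raise the count of members above Control in every HFD mouse. It was 21 of the 35 without Sham mouse 1 (background 21.1%) and 21 without Sham mouse 2 (background 26.1%).

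**Figure D3:**
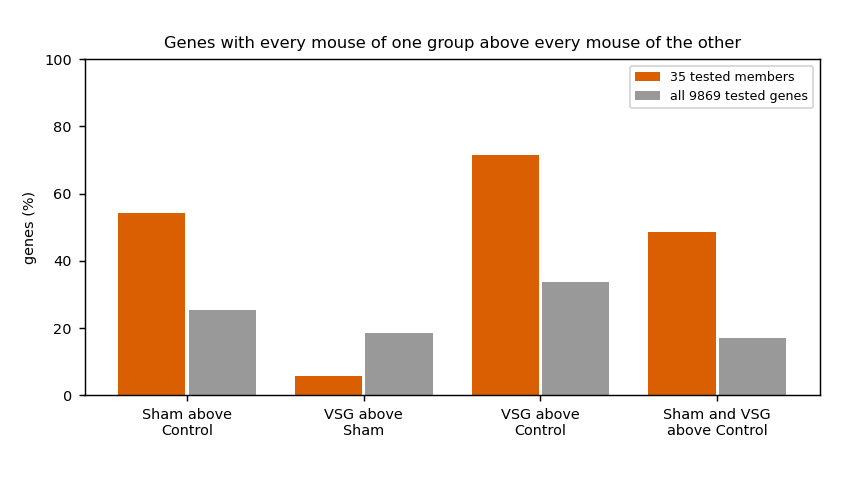
Share of genes, in percent, for which every mouse of the first group lay above every mouse of the second, for the 35 tested members (orange) and all 9869 tested genes (grey), in 4 comparisons. The members stand at 54.3% against 25.4% for Sham over Control and at 5.71% against 18.5% for VSG over Sham.

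Sham mouse 1 had the highest level of the 6 mice for 23 of the 35 tested members (65.7%), against 21.1% of all tested genes. Among the 32 members above 0 in both Sham mice, the level in Sham mouse 1 was a median of 2.02 times that in Sham mouse 2, against 1.06 for all tested genes, and it was higher for 27 of them. The 5 exceptions were Ifih1, Ddx58, Trim25, Rsad2 and Irgm2. The median member lay above the Control mean by 1.02 on the log2 scale in Sham mouse 1, 0.40 in Sham mouse 2, 0.65 in VSG mouse 1 and 0.70 in VSG mouse 2, while the Control mice lay at 0.07 and −0.07. Each of the HFD mice was thus above both Control mice by this measure, and the Sham mice differed from each other more than the VSG mice did. Sham mouse 1 also had the shallowest library.

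**Figure D4:**
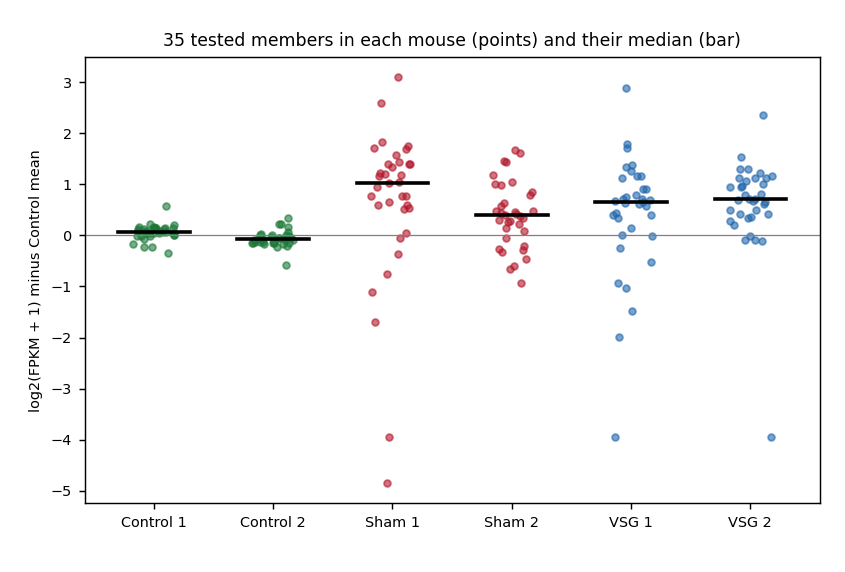
Log2(FPKM + 1) of each of the 35 tested members (points) in each mouse, minus its Control mean, with the median of the members as a bar; the horizontal jitter has no meaning. The median is 1.02 in Sham mouse 1 and between 0.40 and 0.70 in the other HFD mice, and the points near −4 and −5 are members listed at 0.

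Markers of immune cells differed between the same mice. The summed FPKM of 7 markers of antigen-presenting cells (MHC class II genes, Cd74, Itgax, Xcr1 and Flt3) was 39.9 and 24.5 in Control, 88.1 and 36.7 in Sham, and 42.4 and 101 in VSG livers. The sums were highest in Sham mouse 1 and VSG mouse 2. Of the 6 mice, Sham mouse 1 had the highest level for 23 of the 35 tested members (65.7%, against 21.1% of all tested genes). VSG mouse 2 had it for 8 (22.9%), near the 23.3% of all tested genes, so it did not stand out by this count. The 7-marker sums were made up almost wholly of the class II genes and Cd74. Itgax, Xcr1 and Flt3 did not exceed 0.340 FPKM, and each was lower in Sham mouse 1 than in Sham mouse 2. Between the VSG mice, Xcr1 and Flt3 were higher in mouse 2 and Itgax was slightly lower. The 8 Kupffer cell markers summed to 30.5 and 20.5 in Control, 71.4 and 62.2 in Sham, and 59.6 and 208 in VSG mice. By group mean on the log2 scale, 7 of these 8 markers were higher in Sham than Control and all 8 higher in VSG than Control, against 52.8% and 61.3% of all tested genes. At an unadjusted p under 0.05 in limma there were 2 and 4 of them, against 10.9% and 9.56% of all tested genes. Both Sham mice were above both Control mice for Vsig4, Cd5l, Adgre1, Marco and C1qa (background 25.4%). Both VSG mice were above them for Clec4f, Vsig4, Cd5l, Marco and C1qa (background 33.7%). In VSG mouse 1, Adgre1 and Csf1r were below both Control mice, and Timd4 lay between them. Neutrophil markers (6 genes) summed to between 5.37 and 14.1 in Control, 42.2 and 46.5 in Sham, and 22.0 and 16.8 in VSG mice. Most of each sum was S100a8 and S100a9. Retnlg was 1.66 and 0.419, 1.68 and 1.68, and 1.12 and 0.569 in the same order. Ngp and Mmp8 did not exceed 1.26 FPKM and were highest in the Sham mice, and Ly6g was listed at 0 in all mice. The 5 sinusoidal endothelial markers summed to 32.8 and 11.8, 6.18 and 3.42, and 21.1 and 21.1. Clec4g was the largest part of each of these sums. Pecam1 was also lower in both Sham than in both VSG mice. Lyve1 was 1.39 and 0.614 in Sham and 0.913 and 0.893 in VSG mice, and Stab2 and Kdr overlapped between the groups. Markers of plasmacytoid dendritic cells, T and NK cells and B cells were low, with sums of at most 1.16, 2.51 and 3.25 FPKM. Their part in the levels of the interferon-stimulated genes was not tested.

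The interferons themselves were barely detected. Of 9 ligand genes, including Ifnb1 and Ifng, 6 were listed at 0 in all mice, and the sum of all 9 was at most 0.106 FPKM in any mouse, so none was tested. Of 8 tested sensing adaptors and factors, 4 were higher in Sham and 6 in VSG mice than in Control, with 0 passing the adjusted test in limma (0 and 1 at an unadjusted p under 0.05, the 1 being lower in VSG), and of 3 tested inhibitors 2 and 1 were higher (0 and 1). Of all tested genes, 52.8% were higher in Sham and 61.3% in VSG than in Control. In each comparison 0.284% passed the adjusted test, and 10.9% and 9.56% had an unadjusted p under 0.05. Among 27 tested induced genes outside the 38, 24 were higher in Sham and 24 in VSG than in Control mice. Their medians were 0.66 and 0.75 on the log2 scale, against 0.04 and 0.13 for all tested genes. In the 4 HFD mice against Control 1 of them passed the test (0.385% of all tested genes did), Ifi27l2b of the Ifi27 family of small interferon-induced membrane proteins. Its FPKM was 2.66 and 2.34 in Control, 64.0 and 39.1 in Sham, and 79.3 and 34.5 in VSG mice, a rise of 3.90 on the log2 scale (standard error 0.41, adjusted p = 0.0731, limma). All 4 HFD mice were above both Control mice for this gene.

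Among the 5 signalling and transcription factors, Usp18 and, with its transcripts summed, Irf1 were separated between HFD and Control mice. Usp18 (chromosome 6, 121195924 to 121220934), a protease that removes Isg15 from proteins and dampens signalling at the type I receptor, had 2.95 and 2.48 FPKM in Control, 10.02 and 6.32 in Sham, and 7.85 and 6.16 in VSG mice. The HFD mice did not overlap with Control, whereas Sham and VSG mice overlapped. The log2 difference was 1.28 for Sham minus Control (standard error 0.29, adjusted p = 0.290, limma), 1.10 for VSG minus Control (0.29, adjusted p = 0.398) and −0.17 for VSG minus Sham (0.29, adjusted p = 0.986). Irf1, a factor induced by interferon gamma, had 9.30 and 8.59 FPKM in Control, 18.03 and 12.1 in Sham, and 12.1 and 11.8 in VSG mice. For Irf1, Sham minus Control was 0.67 (standard error 0.25, adjusted p = 0.443, limma), and both VSG mice were below both Sham mice, by 0.29 on the log2 scale (adjusted p = 0.944). Without Sham mouse 1 these Irf1 differences were 0.40 and −0.02, and with the most abundant transcript alone Sham minus Control was 0.30 and VSG minus Control 0.05 in place of 0.38. That transcript had 9.30 and 7.33 FPKM in Control, 11.8 and 9.10 in Sham, and 7.73 and 9.55 in VSG mice. For it the HFD mice overlapped with Control.

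Irf7 and Irf9 overlapped between all groups, and Stat2 rested on listed values of 0. Irf7, the factor that amplifies type I interferon production, had 11.3 and 8.97 FPKM in Control, 27.1 and 6.36 in Sham, and 11.2 and 20.4 in VSG mice, so the Sham mice spanned the whole range. Its Sham minus Control difference was 0.38 (standard error 0.70) and turned to −0.59 without Sham mouse 1. Irf9, the DNA-binding subunit of ISGF3, had 13.4 and 11.1 FPKM in Control, 18.2 and 9.999 in Sham, and 2.31 and 12.0 in VSG mice. VSG mouse 1 alone was low for Irf9, and VSG minus Control moved from −1.005 (standard error 0.71, adjusted p = 0.712, limma) to −0.02 without it. Stat2 (chromosome 10, 127707629 to 127729905), the other ISGF3 subunit, was listed at 14.8 and 13.9 FPKM in Control, 0 and 20.2 in Sham, and 0 and 0 in VSG mice. Its start site lay in a FAIRE peak in all 3 groups, ranked above 98.5% of peaks or higher in each list, and Stat2 was the member that passed the test for VSG minus Control when the 2 groups were fitted alone (adjusted p = 0.0375, limma), which rests on values listed at 0.

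Of the 4 RNA sensors, Dhx58 was separated between HFD and Control mice. Dhx58 (LGP2), a regulator of the RIG-I-like receptors, had 2.12 and 1.28 FPKM in Control, 6.07 and 2.64 in Sham, and 3.98 and 3.31 in VSG mice, without overlap between HFD and Control. Ddx58 (RIG-I), which senses viral RNA ends, had 0.862 and 1.99 FPKM in Control, 1.27 and 4.35 in Sham, and 4.13 and 4.81 in VSG mice. Ifih1 (MDA5), which senses long double-stranded RNA, had 3.15 and 2.91 FPKM in Control, 0.880 and 5.02 in Sham, and 5.31 and 6.03 in VSG mice. For both sensors the VSG mice were above Control, and Sham mouse 1 was within or below the Control range. Trim25, a ubiquitin ligase that activates RIG-I, ranged from 4.10 FPKM in VSG mouse 1 to 18.2 in VSG mouse 2, and 0 of the 4 sensors had an unadjusted p under 0.05 in any of the comparisons.

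Isg15 had the largest difference from Control among the antiviral effectors, in both Sham and VSG mice. Isg15 (chromosome 4, 155573533 to 155574927), a ubiquitin-like protein that is conjugated to other proteins and whose promoter holds the 3 overlapping cores shown, had 5.75 and 4.52 FPKM in Control, 35.8 and 15.4 in Sham, and 20.0 and 12.7 in VSG mice. Every HFD mouse exceeded the Control mice, and the Sham and VSG mice overlapped. The log2 difference was 2.01 for Sham minus Control (standard error 0.46, adjusted p = 0.293, limma), 1.47 for VSG minus Control (0.46, adjusted p = 0.462) and −0.54 for VSG minus Sham (0.46, adjusted p = 0.944). Without Sham mouse 1, Sham minus Control was 1.43.

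The remaining effectors followed with smaller differences, and values are given for those in which the HFD mice were separated from Control, chosen after the values had been seen. Ifit1, which binds viral RNA caps, had 1.03 and 1.56 FPKM in Control, 4.99 and 1.98 in Sham, and 2.09 and 2.20 in VSG mice. Oasl1, of the oligoadenylate synthetase family, had 0.864 and 1.54, 6.10 and 2.01, and 3.88 and 2.34 FPKM in the same order of groups. Oas1g, an RNA-activated synthetase of the same family, had 0.387 and 0.282, 1.01 and 0.625, and 1.12 and 1.17 FPKM. In Ifit1 and Oasl1 Sham mouse 1 was far above the rest, whereas in Oas1g both VSG mice were highest. Ifitm3, which blocks viral entry and was the most abundant member, had 517 and 433 FPKM in Control, 1077 and 523 in Sham, and 796 and 600.1 in VSG mice, with Sham mouse 2 close to Control mouse 1. Ifit3, which acts with Ifit1, the pro-apoptotic protein Xaf1 and Oas1a were also separated, with log2 differences in Sham minus Control between 0.72 and 0.96 and standard errors between 0.40 and 0.42.

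Some effectors ran against this pattern. Rsad2 (viperin), which makes a chain-terminating nucleotide, had 1.05 and 1.08 FPKM in Control, 0.230 and 0.992 in Sham, and 0.732 and 0.916 in VSG mice, so all HFD mice were below Control, and Sham mouse 1 was the lowest. Mx2 of the myxovirus resistance family, annotated in RefSeq as a transcribed pseudogene, had 1.94 and 1.99 FPKM in Control, 3.48 and 0.552 in Sham, and 0.445 and 1.80 in VSG mice, with no separation of the HFD mice. Parp14, an ADP-ribosyltransferase, was higher in both Sham mice (4.24 and 3.68 FPKM) than in Control (1.22 and 1.46) and VSG mice (0.622 and 3.04). Bst2 ranged from 104 FPKM in Sham mouse 2 to 377 in Sham mouse 1, Isg20, Ifi35 and Oasl2 had log2 differences of at most 0.41 in size in each comparison, and the 3 untested members Ifit2, Oas2 and Ifi44 did not exceed 1.79 FPKM in any mouse. Of the 15 tested effectors, 1 in Sham and 2 in VSG had an unadjusted p under 0.05 against Control, where 10.9% and 9.56% of all tested genes did.

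Among the inducible GTPases, which act on pathogen vacuoles, Ifi47, Igtp and Gbp7 were separated between HFD and Control mice. Ifi47 (Irg47, chromosome 11, 48890089 to 48910476) had 4.45 and 4.45 FPKM in Control, 18.4 and 13.8 in Sham, and 13.2 and 10.9 in VSG mice, so the HFD mice were clear of Control and both VSG mice were below both Sham mice. The log2 difference was 1.64 for Sham minus Control (standard error 0.24, adjusted p = 0.159, limma), which was the smallest adjusted p of any member in that comparison, 1.26 for VSG minus Control (0.24, adjusted p = 0.301) and −0.38 for VSG minus Sham (0.24, adjusted p = 0.944). Igtp (Irgm3, chromosome 11, 58013058 to 58021093) had 9.94 and 8.91 FPKM in Control, 20.1 and 15.2 in Sham, and 16.0 and 15.6 in VSG mice. Its difference was 0.83 for Sham minus Control (standard error 0.23, adjusted p = 0.356, limma) and 0.69 for VSG minus Control (0.23, adjusted p = 0.480).

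Igtp and its neighbour Irgm2, whose promoters hold the same core, differed in 1 mouse. Irgm2 had 3.36 and 4.94 FPKM in Control, 2.97 and 8.20 in Sham, and 7.25 and 9.15 in VSG mice, so Sham mouse 1 was lowest for Irgm2 and highest for Igtp. Irgm1, a regulator of the other GTPases, was listed at 2.57 and 1.93 FPKM in Control, 0 and 9.35 in Sham, and 9.57 and 5.76 in VSG mice. Both VSG mice were above Control for Irgm1, with a log2 difference of 1.39 (standard error 1.11, adjusted p = 0.739, limma). Iigp1 (Irga6) was listed at 31.3 and 24.6 FPKM in Control, 0 and 23.8 in Sham, and 14.0 and 26.0 in VSG mice. Its Sham minus Control difference of −2.53 (standard error 1.51) came from the listed 0 and was −0.21 without Sham mouse 1. Among the guanylate-binding proteins, Gbp7 had 0.933 and 0.987 FPKM in Control, 2.07 and 1.61 in Sham, and 2.06 and 3.27 in VSG mice, whereas Gbp2 and Gbp3 overlapped between Control and Sham mice. FPKM of these families of related genes depends on how the authors' estimation shared reads between similar copies.

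The 3 antigen processing genes, which lie next to each other on chromosome 17, were higher in every HFD mouse than in either Control mouse. Psmb9 (34318932 to 34324697), an immunoproteasome subunit that replaces a constitutive catalytic subunit, had 8.96 and 3.43 FPKM in Control, 55.5 and 19.3 in Sham, and 48.1 and 32.9 in VSG mice. Psmb8 (34334666 to 34338399), another such subunit, had 12.8 and 11.9 FPKM in Control, 43.7 and 22.0 in Sham, and 28.9 and 37.5 in VSG mice. Tap1 (34324498 to 34334170), a subunit of the transporter that carries peptides into the endoplasmic reticulum, had 4.31 and 3.66 FPKM in Control, 14.9 and 9.28 in Sham, and 11.5 and 11.2 in VSG mice. In all 3 genes both VSG values lay between the Sham values.

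Psmb9 had the largest positive difference of any member in both comparisons with Control. It was 2.35 for Sham minus Control (standard error 0.65, adjusted p = 0.359, limma), 2.62 for VSG minus Control (0.65, adjusted p = 0.372) and 0.27 for VSG minus Sham (0.65, adjusted p = 0.997). Tap1 differed by 1.36 (0.28, adjusted p = 0.271) and 1.31 (0.28, adjusted p = 0.334), and Psmb8 by 1.27 (0.37, adjusted p = 0.374) and 1.35 (0.37, adjusted p = 0.403), in Sham and VSG minus Control. All 3 had an unadjusted p under 0.05 in both (10.9% and 9.56% of tested genes did), and VSG minus Sham lay between −0.05 and 0.27 for the 3 genes. Psmb9 and Tap1 are transcribed away from each other, and the same FAIRE peak covered both start sites in every group (34323877 to 34324928 in Control).

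Open chromatin at the members' start sites was largely shared by the groups. A FAIRE peak lay within 1000 bp of an annotated start site of 28 of the 38 members in the Control list, 29 in the Sham list and 28 in the VSG list (73.7%, 76.3% and 73.7%), against 89.8%, 89.4% and 90.5% of the 8623 tested genes with an annotated start site. For 26 members a peak was present in all 3 groups, and for 7 it was present in none (Ifit3, Oas1g, Oas2, Oasl2, Ifi44, Iigp1 and Gbp2). Ifit1 and Isg15 had a peak in Sham and VSG but not in Control mice, Oas1a in Sham only, and Parp14 and Gbp3 in Control only. The Isg15 peak (155574799 to 155575045 in Sham) covered the printed cores and was weak, ranking above 14.0% of Sham peaks and 5.1% of VSG peaks. The lists differed in size, with 42204 Control, 52881 Sham and 44539 VSG peaks. When the 42204 peaks of highest signal were taken from each list, the counts were 28, 28 and 27. The Isg15 peak then fell below the cut in both HFD lists, so this difference from Control was lost. Because each list pools both mice of a group, these differences have no replicate error. Of the authors' sites that differed between Sham and VSG mice (99 and 414) or were reversible (175 and 61), 0 lay within 100000 bp of a member's start site. The share of all tested genes near such a site was not computed, so this count cannot be read as particular to the members.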

How the data were processed

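Liver RNA-seq and FAIRE-seq of 6 mice (12 samples) were analysed from the deposited tables. The authors aligned RNA reads to mm9 with TopHat2 and deposited an FPKM per RefSeq transcript and mouse, estimated with Cufflinks, which shares reads between isoforms. The labels give poly(A) enrichment and the paper's methods depletion of ribosomal RNA. FAIRE peaks carry a signal that the authors obtained with F-seq, after IDR across both mice of a group. Their site lists hold positions, and their tables of fold changes and p-values from DESeq2 on HTSeq counts were not used.

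Of 34933 transcripts, 34042 were matched to a symbol through RefSeq (GRCm38.p6), and the others were kept under their own identifier. FPKM was summed per gene, and log2(FPKM + 1) was fitted with limma 3.58.1 in R 4.3.3 (trend in the variance, all 6 mice, 2-sided) for genes at 1 FPKM or more in 2 or more mice, with Benjamini-Hochberg adjustment over all of them and an FDR of 10%. Differences on this scale understate those of low genes. The script was tested on simulated data. Depth in reads is unknown. The 38 genes, their roles, the pathway and marker lists and the tests were chosen with earlier results of these data known. Values per mouse were given for the factors and, in each comparison, the 4 tested members with the largest difference, and other values were chosen after they were seen. Alternatives were a pseudocount of 0.1, no filter, a filter at FPKM 5, upper quartile scaling, 1 transcript per gene, transcripts, fits of 2 groups, no variance trend, the replicate block, each mouse left out, wider windows, equal peak numbers and 1 mismatch. Start sites were from GENCODE in NCBIM37. The list of receptors and kinases is not reported here. Alb, Serpina1a and Rnf213 of the lists were not analysed here, nor were promoters of Usp18, Dhx58, Oas2, Mx2, Parp14 and Iigp1. Other steps used Python 3.11.15, numpy 2.4.6, pandas 2.3.3 and matplotlib 3.10.9.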

Additional observations from a re-analysis of the deposited data

How the results depend on the processing

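With no mouse left out, 0 members were called in each comparison under every other setting but 1: fitting VSG and Control alone called 1 member, Stat2. Leaving out 1 mouse at a time called 0 to 4 members in Sham minus Control, 0 to 1 in VSG minus Sham, 0 to 1 in VSG minus Control and 0 to 1 against the HFD mean. The 4, called without Sham mouse 2, were Ifi47 and Tap1, higher, and Stat2 and Iigp1, lower. Median log2 differences ranged from 0.41 to 1.02 in Sham minus Control and from −0.45 to 0.18 in VSG minus Sham, where 1.02 and −0.45 came without Sham mouse 2 and the other ends without Sham mouse 1. They ranged from 0.61 to 0.75 in VSG minus Control and from 0.51 to 0.76 against the HFD mean. A pseudocount of 0.1 gave a median of 0.80 in Sham minus Control. Upper quartile scaling moved the median of all tested genes in VSG minus Control from 0.13 to −0.01, and that of the members from 0.69 to 0.56. Members above without overlap ranged from 20 to 27, from 3 to 18, from 25 to 30 and from 17 to 21 in the 4 comparisons with 1 mouse left out, while the share of all tested genes ranged from 34.1% to 46.7%, from 32.7% to 41.6%, from 43.8% to 52.1% and from 19.8% to 26.1%. Leaving out a mouse can only keep or raise these counts and shares. VSG minus Sham gave 18 without Sham mouse 1, 7 without Sham mouse 2 and 9 without VSG mouse 1. Members at an unadjusted p under 0.05 ranged from 4 to 23 in Sham minus Control, from 0 to 9 in VSG minus Sham, from 3 to 18 in VSG minus Control and from 5 to 23 against the HFD mean, with 23, 9 and 23 all without Sham mouse 2, and 4, 3 and 5 all without Control mouse 2. The share of all tested genes ranged from 5.26% to 18.7%, from 3.32% to 12.3%, from 4.78% to 13.6% and from 5.12% to 19.9%. Directions turned with 1 mouse left out for Irf7 (−0.59 to 1.34 in Sham minus Control, −0.80 to 1.13 in VSG minus Sham, −0.0222 to 0.94 against the HFD mean), Irf9 (−0.26 to 0.54 in Sham minus Control, −0.93 to 0.0617 against the HFD mean) and Stat2 (−3.94 to 0.47, and −4.41 to 0.00 in VSG minus Sham). In VSG minus Sham they also turned for Usp18 (−0.47 to 0.12), Iigp1 (−0.30 to 4.33) and Irgm1 (−0.29 to 3.08). With 1 mismatch allowed, 29 of 32 members held the core (90.6%, against 38.9% of genes). Deviations of same-numbered mice correlated weakly between groups, at 0.118, 0.0643 and 0.0390, which cannot exclude that the numbers pair the mice. With the replicate block the members called stayed at 0 in each comparison, and genes called in Sham minus Control went from 28 to 9. The cause of these shifts was not tested. With 2 mice a group and an unknown number of reads, differences in genes near an FPKM of 1 were hard to detect.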
